A study of Mus musculus with 12 samples.

Results

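Cortical gene expression was compared between CD mice and wild-type (WT) mice when both received curcumin and verapamil together, a co-treatment called VERCUR. The comparison took in every mouse labelled as treated, 3 VERCUR-CD and 3 VERCUR-WT mice, so 6 of the 12 mice of the series. It asks what the deletion changed in cortex once both genotypes had been given the same treatment. CD stands for complete deletion: these mice model Williams-Beuren syndrome and have lost 1 of the copies of the segment of chromosome 5 between Gtf2i and Fkbp6, both genes included, while WT mice keep both. Per the labels, all mice were of the C57Bl6 strain and 16 weeks old. Co-treatment began at 8 weeks of age, with curcumin at 60 mg/kg/day and verapamil at 10 mg/kg/day. The labels also give a treatment of 1 month, shorter than the time from 8 to 16 weeks, while the methods of the study keep it up until sacrifice. The methods of the study give a lower verapamil dose, a younger age at the end and a background that was mostly but not wholly of that strain. They also state that the mice were males that carried a Thy1-YFP transgene, which marks pyramidal neurons, and that the drugs were taken with the drinking water. Intake was recorded per cage, so the dose that a single mouse took is not known. The study reports a lower daily intake in CD than in WT mice, whatever the treatment, so the doses taken may have differed between the genotypes. The remaining 6 mice, VEH-CD and VEH-WT, received the vehicle (the labels call them untreated) and share no sample with the co-treated mice.

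The deleted segment spans regulators of transcription (Gtf2i, Gtf2ird1), of chromatin (Baz1b, Bcl7b), of the cytoskeleton (Limk1, Clip2), of vesicle fusion (Stx1a) and of translation (Eif4h). It is the mouse counterpart of the segment lost in Williams-Beuren syndrome, a neurodevelopmental disorder with hypersociability and deficits in motor coordination. Curcumin, a phenol from turmeric, has antioxidant and anti-inflammatory actions, and verapamil blocks L-type calcium channels.

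Expression was measured by RNA sequencing and is given as normalized counts, the reads of a gene divided by 1 factor per mouse. The counted reads ranged from 40950000 to 56030000 in VERCUR-WT and from 51020000 to 56460000 in VERCUR-CD. On the log2(normalized count + 1) scale, mice of the same group correlated at 0.986 to 0.992 across genes, and mice of different genotype at 0.986 to 0.994. Excitatory neuron markers were high in every co-treated mouse, with 92109 to 106911 normalized counts of the glutamate transporter gene Slc17a7. Markers of striatal neurons set a pair of mice apart. The dopamine receptor gene Drd2 had 68.8, 75.0 and 1671 normalized counts in VERCUR-WT 1 to 3 and 1161, 64.8 and 49.1 in VERCUR-CD 1 to 3, so VERCUR-WT 3 and VERCUR-CD 1 were high. Since 1 such mouse lay in each genotype, results are also given without this pair where the call changed.

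Of 17111 genes tested, 25 (0.146%) were differentially expressed genes (DEGs), defined by a level more than 25% above or below VERCUR-WT together with an adjusted p below 0.05 (limma, Benjamini-Hochberg). In VERCUR-CD, 21 DEGs (0.123% of the genes) were lower and 4 (0.0234%) were higher. The deleted region held 16 of them and 9 lay elsewhere. All 25 separated the 3 VERCUR-CD from the 3 VERCUR-WT mice without overlap, which 7.74% of all genes did (3.83% with CD below WT and 3.91% with CD above it), and 24 of the 25 were also DEGs between VEH-CD and VEH-WT. Before adjustment, 701 genes (4.10%) had a p under 0.05, against 2020 (11.8%) between vehicle-treated mice. By chance, 856 genes would be expected, so the co-treated count was not above chance. It was 1307 without the pair of mice high in striatal markers. Across the alternative fits it ran from 469 without VERCUR-WT 2 to 1558 with sample quality weights. The co-treated count thus depended on the mice included and on their weighting. The median standard error of a log2 fold change was 0.11 and the smallest change called was 0.46, so changes smaller than that were not detected at this number of mice.

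**Figure D1:**
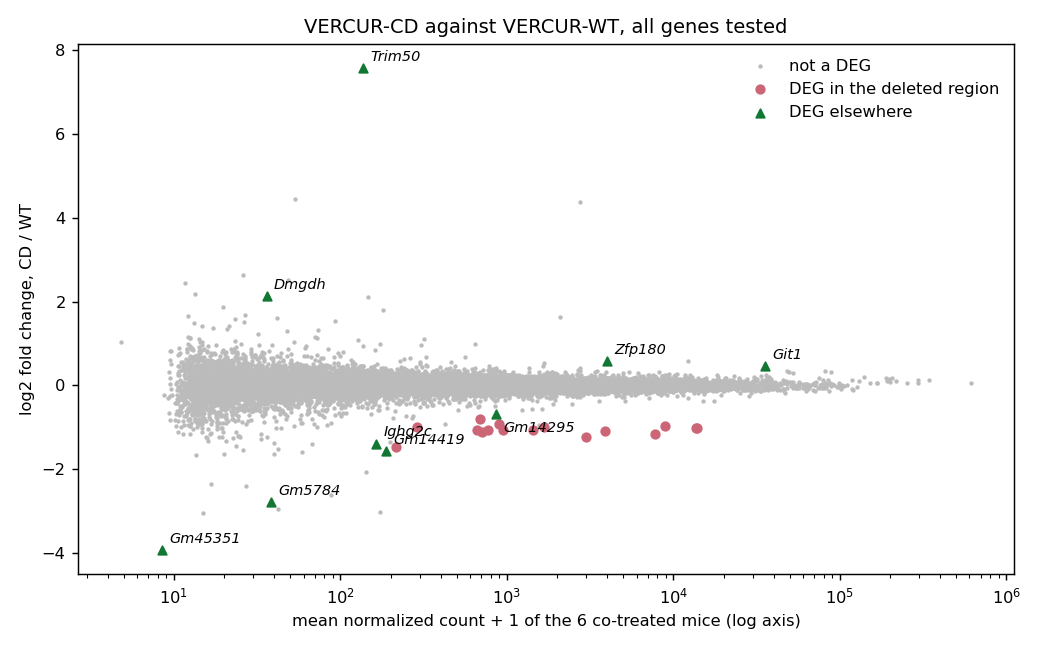
Log2 fold change of VERCUR-CD against VERCUR-WT (vertical axis) by mean normalized count + 1 of the 6 co-treated mice (horizontal log axis), with 1 point per gene tested. The DEGs of the deleted region form a band near -1, and the 9 DEGs elsewhere, which are named, run from -3.93 in Gm45351 to 7.58 in Trim50.

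In the deleted region, all 19 protein-coding genes tested lay lower in each VERCUR-CD mouse than in any VERCUR-WT mouse, where 3.83% of all genes did so, and 16 of the 19 were DEGs. These 19 make up the WBSCR list. The annotation places 25 protein-coding genes between the outer ends of Gtf2i and Fkbp6 (GRCm38, chromosome 5, 134237834 to 135350044, 1.11 Mb), and the other 6 (Syna, Tmem270, Cldn13, Cldn4, Cldn3 and Fkbp6) were not analysed here. The study gives a larger size for the deletion, so its breakpoints need not lie at these gene ends. They were not located here, and the region and the distances from it are taken from the gene ends. The ratio of the group means had a median of 0.481 and ran from 0.356 in Fzd9 to 0.574 in Gtf2ird1, and 14 of the 19 genes had a ratio between 0.45 and 0.55. Relative to the VERCUR-WT mean, the median over the 19 genes was 0.502, 0.462 and 0.502 in VERCUR-CD 1 to 3 and 0.985, 1.03 and 0.978 in VERCUR-WT 1 to 3. Each of the 16 calls held in all 26 alternative analyses.

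**Figure D2:**
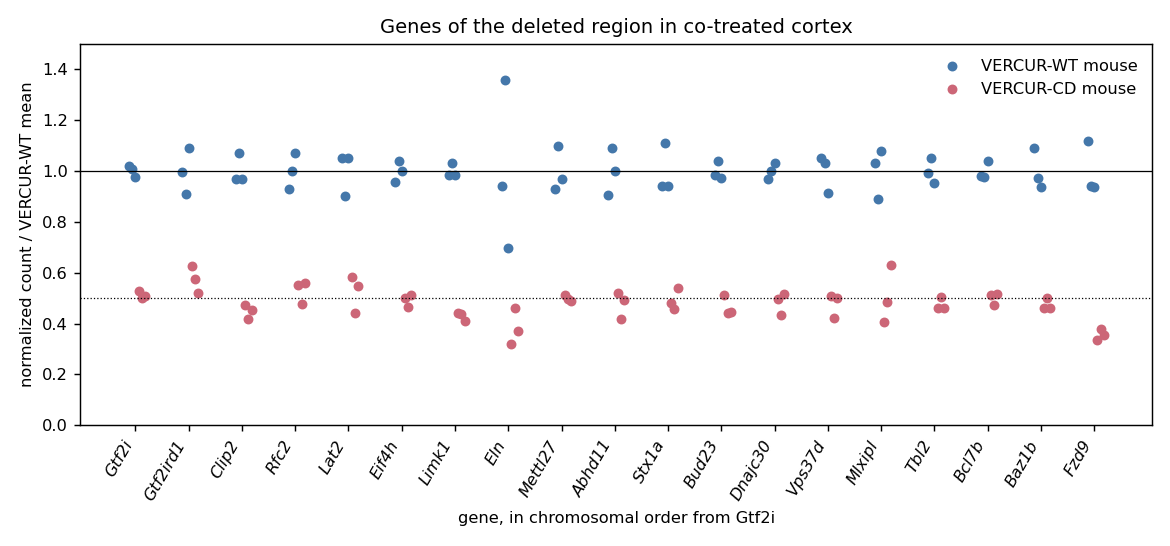
Normalized count of each WBSCR gene in each co-treated mouse divided by the VERCUR-WT mean of that gene (vertical axis), with the genes in chromosomal order (horizontal axis). The solid line marks 1 and the dotted line 0.5. Every VERCUR-CD point lies under every VERCUR-WT point of the same gene, and the widest spread is that of Eln in VERCUR-WT.

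Limk1 encodes a kinase that phosphorylates cofilin and so slows the turnover of actin filaments. It had 4119, 4319 and 4112 normalized counts in VERCUR-WT and 1840, 1823 and 1716 in VERCUR-CD. All VERCUR-CD values lay under 0.5 of the lowest VERCUR-WT value (log2 fold change -1.22 with a standard error of 0.06 and an adjusted p of 4.44e-07 by limma, Benjamini-Hochberg). The 18 other genes listed for the cofilin pathway, among them its kinases and phosphatases, held no DEG and had a median log2 fold change of 0.02, and Limk2, the paralog of Limk1, had one of -0.02.

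Stx1a encodes syntaxin 1A, a SNARE protein of the presynaptic membrane. Its normalized counts were 17363, 20539 and 17375 in VERCUR-WT and 8873, 8417 and 9946 in VERCUR-CD (log2 fold change -1.02 with a standard error of 0.08 and an adjusted p of 1.47e-05 by limma, Benjamini-Hochberg). Among 20 other genes of vesicle fusion none was a DEG, with a median log2 fold change of 0.02.

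Eif4h, whose product stimulates the RNA helicase of the translation initiation complex, had 17657, 19195 and 18540 normalized counts in VERCUR-WT and 9278, 8584 and 9499 in VERCUR-CD (log2 fold change -1.02, standard error 0.05). None of 13 other initiation genes was a DEG, and their log2 fold changes ran from -0.06 in Eif4g1 to 0.15 in Pabpc1. Gtf2i, which encodes the transcription factor TFII-I, had 12031, 11903 and 11579 normalized counts in VERCUR-WT and 6249, 5916 and 6017 in VERCUR-CD, a ratio of 0.512. Its neighbour Gtf2ird1, of the same family of transcription factors, had the ratio nearest to 1, with 876, 800.2 and 959.9 normalized counts in VERCUR-WT and 550.5, 505.4 and 457.1 in VERCUR-CD.

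The ratio farthest from 1 was that of Fzd9, which encodes a Frizzled receptor for Wnt proteins. It had 352.5, 296.4 and 294.1 normalized counts in VERCUR-WT and 105.6, 118.7 and 111.6 in VERCUR-CD (log2 fold change -1.48, standard error 0.14). The 20 other genes listed for Frizzled receptors and Wnt signalling had a median of 0.02 and no DEG. Baz1b, a subunit of an ISWI chromatin remodeler, and Bcl7b, a subunit of the BAF remodeler, had ratios of 0.474 and 0.501, and the 19 other remodeler subunits had a median of 0.02 with none called. Clip2, which links membranes to microtubule plus ends, had -1.16, beside a median of 0.03 and no DEG in 14 other plus-end genes.

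The 3 WBSCR genes that were no DEGs were Lat2, Mlxipl and Eln. Lat2 encodes an adaptor of immune cells and had 93.8, 80.6 and 94.0 normalized counts in VERCUR-WT and 52.4, 39.6 and 49.1 in VERCUR-CD (adjusted p = 0.0508, limma, Benjamini-Hochberg). Mlxipl encodes ChREBP, a glucose-sensing transcription factor, and had 97.3, 84.3 and 102.6 against 38.4, 45.9 and 59.7 (adjusted p = 0.0543, limma, Benjamini-Hochberg). Eln encodes elastin and had 269.4, 389.9 and 199.2 against 91.6, 132.2 and 105.9 (adjusted p = 0.0809, limma, Benjamini-Hochberg). In all 3 the groups stayed apart, and their ratios of 0.525, 0.506 and 0.384 lay within the range of the called genes. Each of the 3 noncoding genes tested in the region also had a negative log2 fold change, with -0.88 in Gm43481, -1.45 in Gm42884 and -1.51 in Abhd11os, and none passed the threshold.

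Between vehicle-treated mice the same 16 WBSCR genes were DEGs, with a median log2 fold change of -0.95 beside -1.06 in co-treated mice. In 19 of 19 genes the co-treated difference was the more negative one, by 0.02 to 0.46 on the log2 scale. The interaction of genotype and treatment did not pass the threshold in any of them (smallest adjusted p = 0.816, limma, Benjamini-Hochberg).

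Beside the deletion, 44 genes within 2 Mb of an end were tested (6 beyond Gtf2i and 38 beyond Fkbp6) and 1 of them, Trim50, was a DEG. Trim50 encodes a ubiquitin ligase of the tripartite motif family, known from the stomach, and begins 3.25 kb beyond Fkbp6 (chromosome 5, 135353295 to 135368005, plus strand). It was listed at 0, 1.85 and 0 normalized counts in VERCUR-WT, which are 2 reads in all, and had 275.7, 280.6 and 253.1 in VERCUR-CD, which are 891 reads. The ratio of the read rates was 413 (exact 95% interval 114 to 3412, which covers counting error only). None of the 1806 stretches of 50 bases in its annotated transcripts occurs in a transcript of another gene, unlike in several of the DEGs below. The other 43 neighbours had a median log2 fold change of -0.07, from -0.61 in Muc3a to 0.44 in Ssc4d. Those next to Trim50 were at -0.02 (Nsun5) and -0.10 (Pom121), and those nearest to Gtf2i were at -0.10 (Ncf1, 8.21 kb away, a subunit of the phagocyte NADPH oxidase) and -0.11 (Gtf2ird2).

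**Figure D3:**
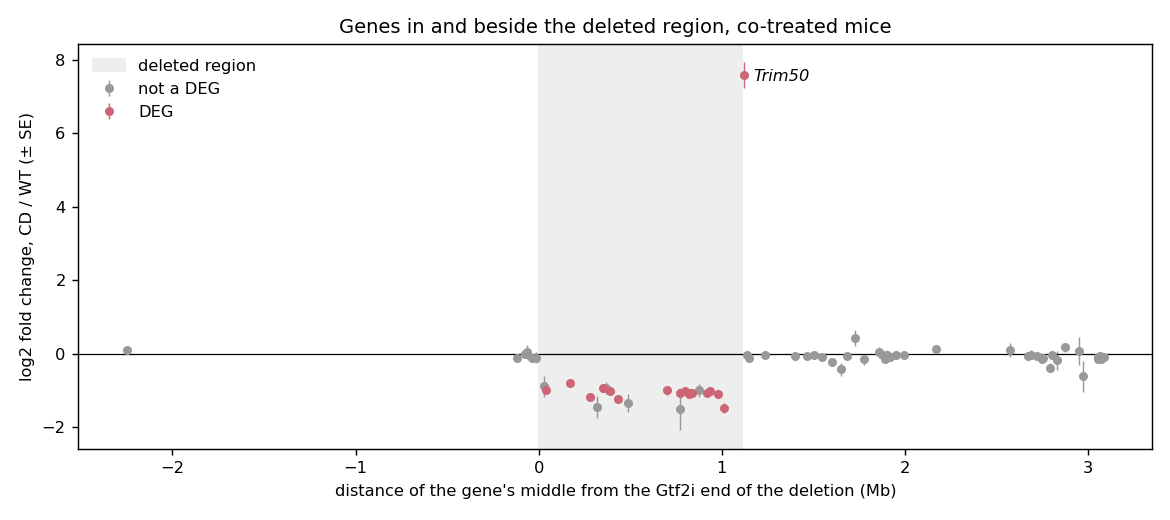
Log2 fold change of VERCUR-CD against VERCUR-WT with its standard error (vertical axis) for the genes in the deleted region (grey band) and within 2 Mb of its ends, by the distance of the middle of each gene from the Gtf2i end in Mb (horizontal axis). Values drop to about -1 in the band and lie near 0 on both sides, apart from Trim50 at 7.58.

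The 8 DEGs on other chromosomes were 3 higher genes (Zfp180, Git1 and Dmgdh) and 5 lower ones (Ighg2c, Gm45351, Gm5784, Gm14295 and Gm14419). Zfp180 encodes a zinc finger protein with a KRAB domain (chromosome 7, 24081924 to 24107713). It had 3274, 2943 and 3369 normalized counts in VERCUR-WT and 4898, 4848 and 4593 in VERCUR-CD (log2 fold change 0.58 with a standard error of 0.06 and an adjusted p of 0.000393 by limma, Benjamini-Hochberg). The groups did not overlap, none of 10 genes tested within 250 kb had an unadjusted p under 0.05, and the call held in all 26 alternatives.

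Git1 (chromosome 11, 77493562 to 77507786) encodes a GTPase-activating protein for Arf that serves as a scaffold of focal adhesions and dendritic spines. It had 28541, 30186 and 31419 normalized counts in VERCUR-WT and 41295, 40226 and 42570 in VERCUR-CD (log2 fold change 0.46 with a standard error of 0.05 and an adjusted p of 0.00145 by limma, Benjamini-Hochberg). All VERCUR-CD values were above the VERCUR-WT values, by 38% on average. The call was lost where only the 6 co-treated mice entered the fit (adjusted p = 0.0706, limma, Benjamini-Hochberg), with the same log2 fold change.

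Dmgdh (chromosome 13, 93674433 to 93752833) encodes dimethylglycine dehydrogenase, a mitochondrial enzyme of choline breakdown best known in liver. Its normalized counts were 11.9, 16.7 and 9.49 in VERCUR-WT and 52.4, 57.6 and 62.6 in VERCUR-CD, 4.53 times as high (log2 fold change 2.13 with a standard error of 0.29 and an adjusted p of 0.00446 by limma, Benjamini-Hochberg). These are low levels, and without VERCUR-WT 3 and VERCUR-CD 1 the adjusted p was 0.081 (limma, Benjamini-Hochberg).

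The 250 bases before the start of each of these 3 genes are shown because they are the annotated promoters of the higher genes away from the deletion, in the RefSeq annotation of GRCm38.p6. All 3 lie on the plus strand and are read 5′ to 3′. Capitals mark CCAAT boxes (CCAAT or ATTGG) and GC boxes (GGGCGG or CCGCCC), searched on both strands.
Zfp180, chr7:24081647-24081896: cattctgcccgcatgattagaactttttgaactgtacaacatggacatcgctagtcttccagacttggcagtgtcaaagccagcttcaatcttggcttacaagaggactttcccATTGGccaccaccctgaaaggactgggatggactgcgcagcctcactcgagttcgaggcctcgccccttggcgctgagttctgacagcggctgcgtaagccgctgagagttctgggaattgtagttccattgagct
Git1, chr11:77493038-77493287: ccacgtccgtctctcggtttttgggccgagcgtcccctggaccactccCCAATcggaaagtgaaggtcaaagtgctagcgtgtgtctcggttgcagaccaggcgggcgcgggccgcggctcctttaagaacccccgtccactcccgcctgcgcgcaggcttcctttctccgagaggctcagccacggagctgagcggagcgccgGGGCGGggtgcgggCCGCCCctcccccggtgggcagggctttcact
Dmgdh, chr13:93674186-93674435: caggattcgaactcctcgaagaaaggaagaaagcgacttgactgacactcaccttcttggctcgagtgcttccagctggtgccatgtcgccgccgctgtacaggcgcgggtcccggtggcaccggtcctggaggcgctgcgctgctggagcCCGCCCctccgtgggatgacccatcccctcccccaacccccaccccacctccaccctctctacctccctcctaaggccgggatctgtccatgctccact
A CCAAT box occurs in the windows of Zfp180 and Git1, and in 33.8% of 32851 promoter windows of that length, counted with 1 chromosome left out. GC boxes occur in those of Git1 (2) and Dmgdh (1) and in 32.7% of the windows counted. Neither the TATA box letters TATAAA (12.4% of windows) nor the cAMP response element TGACGTCA (1.55%) occurs in the 3 windows. The shares of G and C were 52.8%, 68.8% and 64.8%. RefSeq gives Git1 a second start, whose window (chr11:77493162-77493411) is not shown. It held 9 GC boxes and no CCAAT box, so the motif counts given for Git1 hold only for the start shown.

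Ighg2c, the constant region of the immunoglobulin G2c heavy chain (chromosome 12, 113285325 to 113288932), had 232.7, 223.2 and 248.4 normalized counts in VERCUR-WT and 106.4, 91.7 and 71.2 in VERCUR-CD. The ratio of means was 0.383 (log2 fold change -1.39 with a standard error of 0.16 and an adjusted p of 0.00143 by limma, Benjamini-Hochberg). The neighbouring constant region Ighm had 1490, 2318 and 2336 normalized counts in VERCUR-WT and 1283, 1101 and 812.2 in VERCUR-CD, also without overlap, at an adjusted p of 0.168 (limma, Benjamini-Hochberg). Other genes of B cells were at low levels and overlapped between genotypes: the light chain gene Igkc had 13.8 to 34.4 normalized counts in VERCUR-WT and 13.5 to 23.1 in VERCUR-CD, and Jchain had 10.2 to 15.4 and 7.19 to 20.2. The part of B cells in the difference was not tested.

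The other 4 lower DEGs were predicted genes with close copies. Gm14295 and Gm14419 belong to a group of zinc finger genes at the far end of chromosome 2 (176798612 to 176811223 and 177000956 to 177012787). Gm14295 had 966.2, 1054 and 1175 normalized counts in VERCUR-WT and 689.3, 685.3 and 599.6 in VERCUR-CD. Gm14419 had 286.1, 254.7 and 292.4 in VERCUR-WT and 75.9, 134.0 and 78.9 in VERCUR-CD, and was the DEG that was not also one between vehicle-treated mice (log2 fold change -1.57, adjusted p = 0.0131, against -1.03, adjusted p = 0.119, limma, Benjamini-Hochberg). The difference between these log2 fold changes, -0.53, was not past the threshold (adjusted p = 0.818, limma, Benjamini-Hochberg). In their annotated transcripts, 74.8% of the 50-base stretches of Gm14295 and 94.3% of those of Gm14419 also occur in other genes, most often in each other, so how their reads were shared out is uncertain. Their calls were lost in 5 of 26 and 8 of 25 alternatives, among them the one without VERCUR-WT 3 and VERCUR-CD 1, where the adjusted p was 0.102 for Gm14295 and 0.232 for Gm14419 (limma, Benjamini-Hochberg). Gm14296, Zfp970 and Gm14403 nearby were also lower without overlap (log2 fold changes -0.56, -0.73 and -0.65), and none was a DEG.

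Gm45351, a long noncoding RNA (chromosome 7, 9868880 to 9876966), was listed at 0 in each VERCUR-CD mouse and had 9.50, 13.9 and 21.6 normalized counts in VERCUR-WT, or 48 reads. Against the limit of 3 reads that a count of 0 allows over the group, it was at least 17.3-fold lower with the 48 reads taken as exact, and the exact 95% interval of the ratio of read rates, which also counts their error, ran up to 0.074. Gm5784 (chromosome 12, 19387809 to 19433081) had 42.7, 72.2 and 84.5 normalized counts in VERCUR-WT and 8.72, 8.99 and 7.70 in VERCUR-CD (log2 fold change -2.78 with a standard error of 0.36 and an adjusted p of 0.00307 by limma, Benjamini-Hochberg), and the noncoding gene AC124739.2 beside it had 21.4, 29.6 and 29.3 against 2.62, 4.50 and 6.74. Of their 50-base stretches, 88.4% in Gm45351 and 21.8% in Gm5784 occur in other genes. Without VERCUR-WT 3 and VERCUR-CD 1 the adjusted p was 0.0505 for Gm45351 and 0.0796 for Gm5784 (limma, Benjamini-Hochberg). Without this pair 6 genes outside the deleted region were DEGs. Trim50, Zfp180, Git1 and Ighg2c were among them, and Igfbpl1 and Gm36855 were gained. Igfbpl1, which encodes a protein related to the binding proteins of insulin-like growth factors, had 1.19, 4.63 and 88.0 normalized counts in VERCUR-WT and 106.4, 41.4 and 44.3 in VERCUR-CD, so VERCUR-WT 3 and VERCUR-CD 1 held its highest values and the groups overlapped over all 6 mice.

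**Figure D4:**
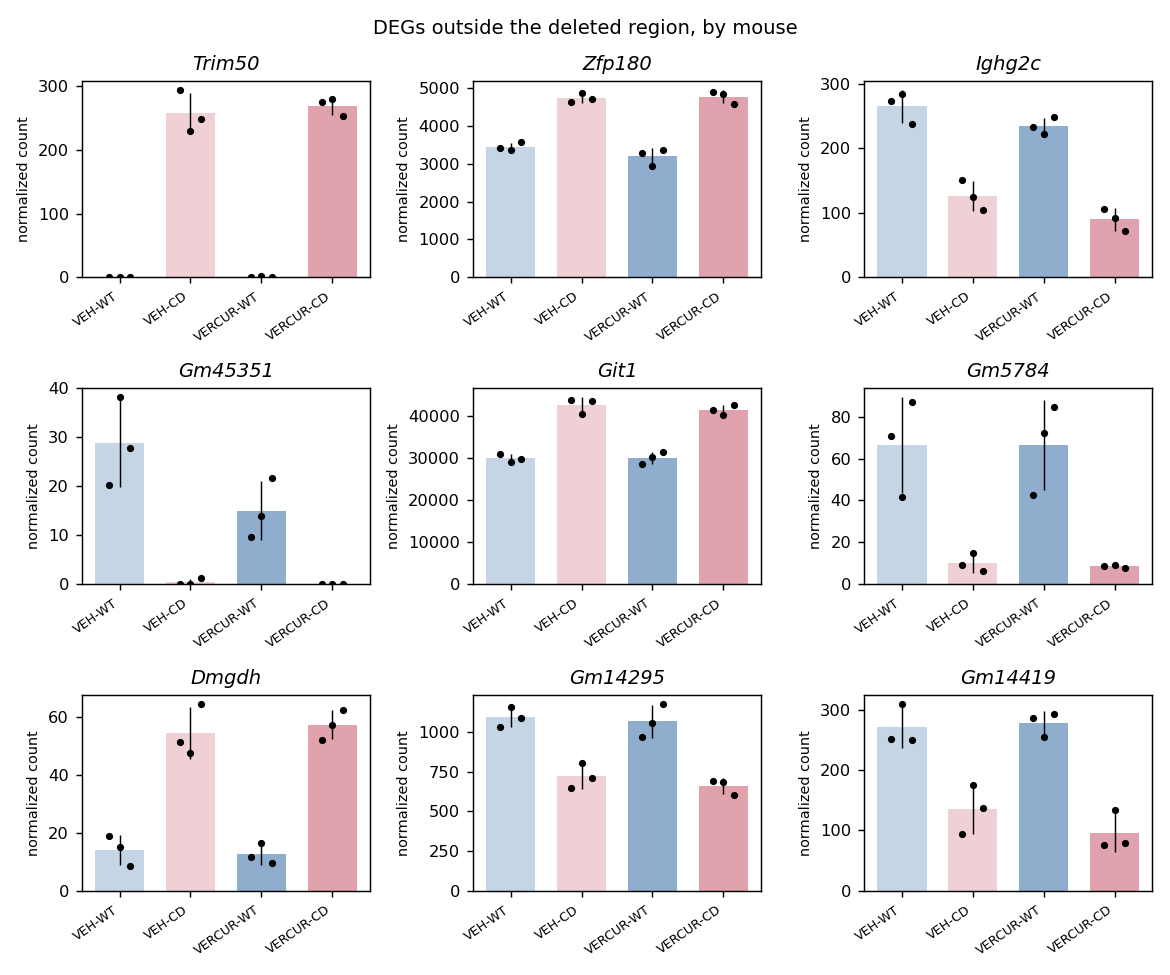
Normalized counts (vertical axes, from 0) of the 9 DEGs outside the deleted region in each mouse (points) of the 4 groups, with the mean (bars) and SD (lines) of 3 mice. In each panel the VERCUR-CD points lie apart from the VERCUR-WT points, and VEH-CD lies on the same side of VEH-WT.

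Below the threshold, the 10 genes with the smallest p had adjusted p values of 0.0508 to 0.0761 (limma, Benjamini-Hochberg). Besides Lat2 and Mlxipl they were Akr1c18, Alox8, Bc1, Upf2, Gm31166, Gm9780, Ubqln4 and Tmem254b, and the groups did not overlap in any of them. Bc1, a short noncoding RNA of dendrites that represses translation, had 861.7, 1029 and 1073 normalized counts in VERCUR-WT and 4564, 2202 and 2832 in VERCUR-CD (log2 fold change 1.63), beside 0.36 between vehicle-treated mice. Of its 50-base stretches, 31.1% occur in other transcripts, and it was a DEG in 6 of 25 alternatives. Akr1c18, which encodes a hydroxysteroid dehydrogenase that inactivates progesterone, had 58.2, 65.8 and 53.5 against 113.4, 102.5 and 108.8. The lipoxygenase gene Alox8 had 181.6, 194.5 and 182.8 against 256.5, 289.6 and 329.1. Upf2, a factor of nonsense-mediated decay, and Ubqln4, a ubiquilin, had log2 fold changes of 0.32 and 0.28.

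Tmem254b and Gm9780 lie on chromosome 14 among copies of 2 genes. Tmem254b had 451.1, 482.6 and 365.7 normalized counts in VERCUR-WT and 874.2, 842.6 and 849.8 in VERCUR-CD, where the vehicle-treated mice of both genotypes had 770.9 to 1394. Tmem254a and Tmem254c were higher in VERCUR-CD too, without overlap (log2 fold changes 0.94 and 1.80), as was Plac9b (1.32). The pseudogene Gm2260 of the same cluster went the other way, with 79.5, 43.5 and 68.1 normalized counts in VERCUR-WT and 44.5, 10.8 and 0 in VERCUR-CD, which overlapped (log2 fold change -2.95 with a standard error of 1.14). All 50-base stretches of Tmem254b and 99.4% of those of Gm9780 occur in another gene of the cluster. The interaction of Tmem254b was 1.19 (adjusted p = 0.783, limma, Benjamini-Hochberg).

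Of the 28 DEGs of VEH-CD against VEH-WT outside the deleted region, 8 were also DEGs in the co-treated comparison and 20 were not. Of these 20, 15 were lower in VEH-CD, with a median log2 fold change of -0.76 there and -0.04 in the co-treated comparison. Sik1, which encodes a salt-inducible kinase, had 693.2, 393.6 and 803.0 normalized counts in VERCUR-WT and 757.3, 449.7 and 640.9 in VERCUR-CD, which overlapped. Its log2 fold change was -0.00 beside -1.60 in vehicle-treated mice. The Sik1 means were 1247 in VEH-WT and 403.4 in VEH-CD, and 629.9 in VERCUR-WT and 616.0 in VERCUR-CD, so WT was lower and CD higher under co-treatment. In the protocadherin gene Pcdhb17 they were 730.0 in VEH-WT and 472.7 in VEH-CD, and 734.8 in VERCUR-WT and 549.0 in VERCUR-CD. Which genotype moved thus differed between genes and was not tested. Zfp189, a zinc finger gene, had 309.8, 214.9 and 307.9 in VERCUR-WT and 366.5, 376.8 and 396.5 in VERCUR-CD, so it lay above VERCUR-WT (0.47) where VEH-CD had lain below VEH-WT (-0.97). The 5 that had been higher in VEH-CD had a median of 0.56 there and 0.32 here. Ddn, which encodes the postsynaptic protein dendrin, was among them, with 84661, 77463 and 72086 normalized counts in VERCUR-WT and 91844, 100813 and 100598 in VERCUR-CD (log2 fold change 0.33, adjusted p = 0.185, limma, Benjamini-Hochberg).

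Whether the effect of the deletion differed between co-treated and vehicle-treated mice was tested with the interaction of genotype and treatment, and no gene passed the threshold (0 of 17111, limma, Benjamini-Hochberg). The smallest adjusted p was 0.532, in Zfp189 (interaction 1.44 on the log2 scale). At an unadjusted p under 0.05 there were 1035 genes (6.05%), and limma-voom on recovered reads gave 0 and 1029. Of the 20 genes above, 16 had an unadjusted interaction p under 0.05, but their vehicle difference had chosen them.

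Among 41 lists of genes besides WBSCR, of 6 to 63 tested genes each, none held a DEG. These lists leave out the deleted region, which held 16 of the 25 DEGs, while 9 lay elsewhere. The share of DEGs was 0.146% over all genes and lower outside the region, so finding none is near it. Their median log2 fold changes in the co-treated comparison ran from -0.18 to 0.26, beside 0.004 over all genes tested. In 6 of the 41 lists the median was more than 0.1 from 0, against 22 of 41 between vehicle-treated mice.

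**Figure D5:**
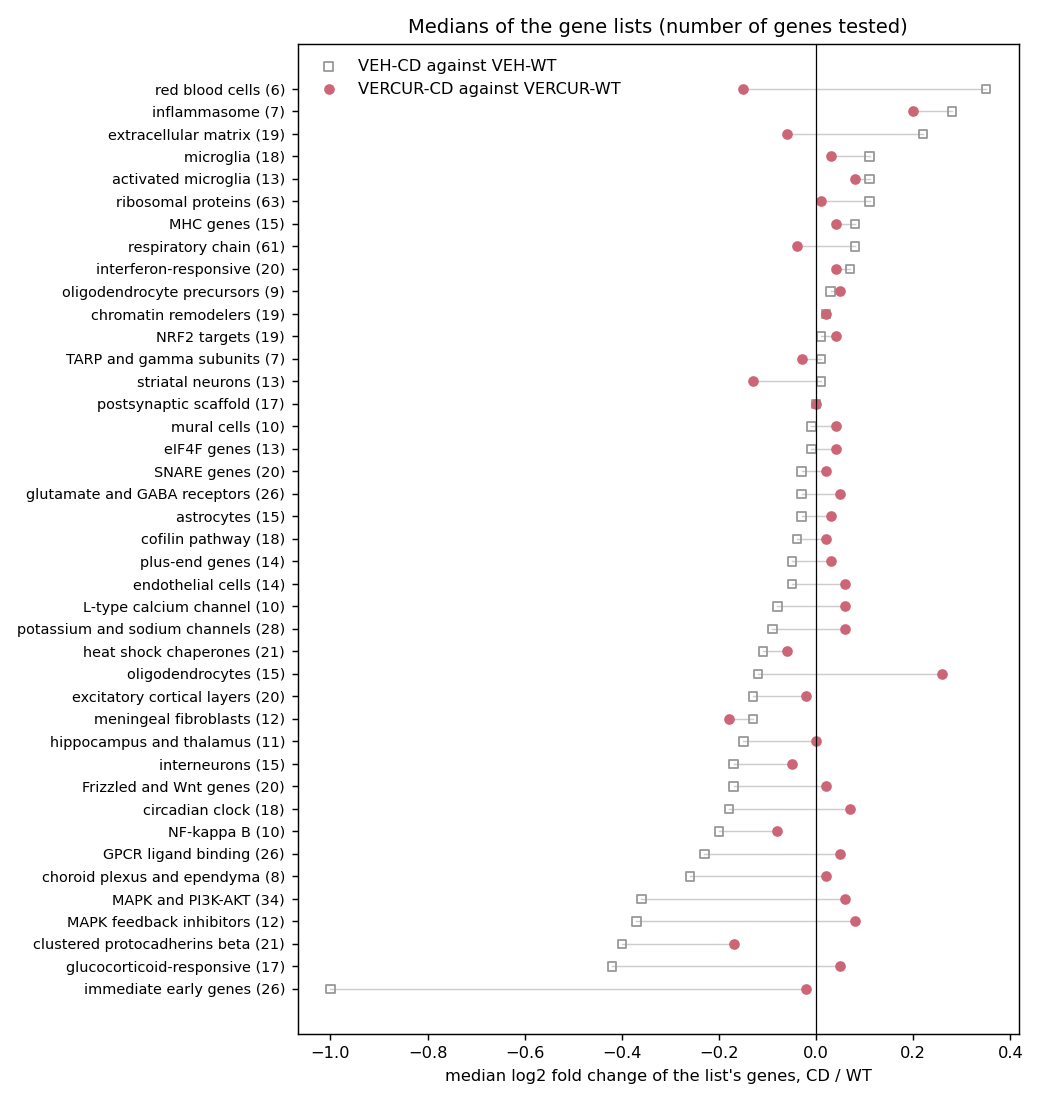
Median log2 fold change, CD against WT, of the genes of each list (rows, with the number tested) in co-treated mice (filled circles) and in vehicle-treated mice (open squares). The filled circles lie between -0.18 and 0.26, and the widest gap between the symbols is that of the immediate early genes, near 0 and near -1.

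Immediate early genes are transcribed within minutes of neuronal activity. All 26 were tested, 11 had a positive log2 fold change and none had an unadjusted p under 0.05 in co-treated mice, where 20 of 26 did in vehicle-treated mice. The shares over all genes were 4.10% and 11.8%, so a count of 0 among 26 genes is near the co-treated share. Their log2 fold changes ran from -0.44 in Egr4 to 0.58 in Arc. Fos had 1704, 595.5 and 1784 normalized counts in VERCUR-WT and 1410, 747.3 and 1335 in VERCUR-CD, and Arc, which acts at synapses, had 14339, 1948 and 19267 against 16726, 8537 and 12694. VERCUR-WT 2 was the lowest co-treated mouse in both. Without it the median of the list was -0.27 in place of -0.02. The Arc means were 26594 in VEH-WT and 6157 in VEH-CD, and 11851 in VERCUR-WT and 12652 in VERCUR-CD. WT was thus lower and CD higher under co-treatment, and whether co-treatment changed either genotype was not tested here. Bdnf, which encodes a neurotrophin, had 1557, 1551 and 1170 against 1338, 1511 and 1302 (log2 fold change -0.03).

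The 12 feedback inhibitors of MAPK signalling, of the Dusp, Sprouty and Spred families, had a median of 0.08 (vehicle -0.37), from -0.20 in Dusp2 to 0.34 in Dusp5. On the log2 scale, relative to the VERCUR-WT mean, the list stood at 0.07, -0.10 and 0.01 in VERCUR-WT 1 to 3. In VERCUR-CD 1 to 3 it stood at 0.03, 0.09 and 0.03. VERCUR-WT 2 was again the lowest mouse, and its Dusp5 count was 264.9, against 485.5 and 625.3 in the other VERCUR-WT mice. The 17 glucocorticoid-responsive genes had a median of 0.05 (vehicle -0.42), and the 18 clock genes one of 0.07 (vehicle -0.18), with Per1 highest at 0.29 and Per2 lowest at -0.33. The clustered protocadherins beta, which give neurons their surface identity, kept a median of the same sign: 16 of 21 were negative, the median was -0.17 (vehicle -0.40), and Pcdhb6 was lowest at -0.59. Relative to the VERCUR-WT mean the list stood at 0.06, -0.11 and 0.04 in VERCUR-WT 1 to 3 and at -0.40, 0.03 and -0.16 in VERCUR-CD 1 to 3, so VERCUR-CD 2 lay within the VERCUR-WT range. Its median was -0.05 without VERCUR-CD 1 and -0.28 without VERCUR-CD 2. Sequence shared between these genes was not measured.

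The study named lists from these vehicle-treated mice, so these lists are not independent of the series. In co-treated mice its 7 inflammasome genes had a median of 0.20 (vehicle 0.28) with none called, 5 of them positive and 2 negative. Relative to the VERCUR-WT mean the list stood at -0.06, 0.03 and -0.07 in VERCUR-WT 1 to 3. It stood at 0.13, 0.10 and 0.10 in VERCUR-CD 1 to 3, without overlap, as was the case for 7.74% of single genes. The summed normalized counts of the list overlapped, with 2356, 2385 and 2276 in VERCUR-WT and 2279, 2466 and 2305 in VERCUR-CD. None of the 7 genes had an unadjusted p under 0.05 (limma). Nlrp3, the sensor of an inflammasome, had 40.4, 51.9 and 23.3 normalized counts in VERCUR-WT and 46.2, 47.7 and 35.6 in VERCUR-CD, and the genotypes overlapped. The adaptor Pycard had 118.7, 113.9 and 103.5 against 142.2, 112.4 and 153.0 (log2 fold change 0.27), and the DNA sensor Aim2 had 55.8, 50.9 and 73.3 against 85.5, 74.6 and 63.5 (0.32). Its 34 genes of MAPK and PI3K-AKT signalling had a median of 0.06 (vehicle -0.36). Hspa1l, a chaperone of the Hsp70 family, was highest with 16.62, 12.04 and 13.80 against 31.4, 36.0 and 24.1 (adjusted p = 0.262, limma, Benjamini-Hochberg), and Hspb1, a small heat shock protein, was lowest with 273.0, 329.7 and 285.5 against 245.2, 229.3 and 190.6. The 10 genes of NF-kappa B signalling had a median of -0.08, from -0.67 in Card14 to 0.49 in Pidd1. That list stood at 0.01, -0.02 and 0.03 in VERCUR-WT 1 to 3 and at -0.13, -0.11 and -0.08 in VERCUR-CD 1 to 3. The 26 genes of ligand binding to G protein-coupled receptors had one of 0.05, from -0.65 in Agtr2 to 0.68 in Bdkrb2. The 19 extracellular matrix genes had one of -0.06, from -0.43 in Adamts14 to 0.77 in Gdf5. Card14, Agtr2, Adamts14 and Gdf5 were at low levels, with at most 24.3 normalized counts in any co-treated mouse. The standard errors of their log2 fold changes were 0.39 to 0.43.

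For the pathways that the treatment is known to touch, differences between genotypes were small. The 10 genes tested of the L-type calcium channel, the target of verapamil, had a median of 0.06, from -0.22 in Cacnb1 to 0.37 in Cacna1s, and the 7 gamma subunit genes had one of -0.03. Cacng6 had 41.5, 41.7 and 53.5 normalized counts in VERCUR-WT and 44.5, 43.2 and 64.5 in VERCUR-CD. The 19 targets of NRF2, the antioxidant factor that curcumin is known to activate, had a median of 0.04, from -0.13 in Txnrd1 to 0.23 in Nqo1. The gene of NRF2 itself, Nfe2l2, had 625.5, 617.8 and 589.9 against 684.0, 705.1 and 659.2, without overlap (log2 fold change 0.16, adjusted p = 1, limma, Benjamini-Hochberg).

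Genes of neuronal signalling and of basic metabolism differed little. Medians were 0.05 for 26 glutamate and GABA receptor genes, -0.00 for 17 postsynaptic scaffold genes and 0.06 for 28 potassium and sodium channel genes, and the lowest and highest members were Grik4 (-0.21) and Gabra3 (0.20), Homer3 (-0.27) and Homer2 (0.10), and Hcn4 (-0.14) and Kcna1 (0.18). The 63 ribosomal protein genes had a median of 0.01, from -0.08 in Rplp1 to 0.12 in Rpl30. The respiratory chain had 7 of 61 genes with a positive log2 fold change and a median of -0.04, from -0.17 in Atp5d to 0.04 in Ndufa9. None of the 61 had an unadjusted p under 0.05 (limma). Relative to the VERCUR-WT mean this list stood at -0.11, 0.06 and 0.06 in VERCUR-WT 1 to 3. In VERCUR-CD 1 to 3 it stood at 0.06, -0.18 and -0.03, so the genotypes overlapped. The 21 heat shock chaperones had a median of -0.06. The 20 interferon-responsive genes had one of 0.04, from -0.32 in Ifit1 to 0.61 in Oas1a, which had only 12.1 to 30.8 normalized counts. The 15 MHC genes tested had one of 0.04, with H2-Aa lowest at -0.58.

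Microglial markers gave a median of 0.03 over 18 genes. Olfml3, which encodes a secreted protein of microglia, was the lowest at -0.48, with 1008, 1037 and 896.1 normalized counts in VERCUR-WT and 756.5, 687.1 and 664.0 in VERCUR-CD (adjusted p = 0.257, limma, Benjamini-Hochberg). Aif1, the marker known as IBA1, had 201.8, 271.4 and 257.0 against 310.6, 241.0 and 266.6, which overlapped. The 13 markers of activated microglia that were tested had a median of 0.08 (vehicle 0.11), with 9 positive and 4 negative. Cd80 was highest at 0.61, on 11.9 to 23.1 normalized counts. Relative to the VERCUR-WT mean this list stood at 0.01, -0.01 and 0.02 in VERCUR-WT 1 to 3. In VERCUR-CD 1 to 3 it stood at 0.20, 0.03 and 0.15, above VERCUR-WT without overlap but by little in VERCUR-CD 2. Of single genes, 7.74% had no overlap. The summed normalized counts of the list did overlap and went the other way on average. They were 72424, 83799 and 80778 in VERCUR-WT and 76688, 66951 and 74796 in VERCUR-CD. Tgfb1, an anti-inflammatory cytokine gene, had 381.0, 475.1 and 371.7 against 364.7, 334.5 and 376.3. In bulk tissue, fewer cells of a type and less RNA per cell cannot be told apart.

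Medians were 0.03 for astrocytes (15 genes), 0.05 for oligodendrocyte precursors (9), 0.06 for endothelial cells (14), 0.04 for mural cells (10), -0.05 for interneurons (15), -0.02 for the excitatory layers of cortex (20) and -0.00 for markers of hippocampus and thalamus (11). Oligodendrocyte markers were all positive on the log2 scale, 15 of 15, with a median of 0.26, from 0.08 in Mbp to 0.48 in Cldn14, and none had an unadjusted p under 0.05. The means of the normalized counts of Mbp ran the other way, with a ratio of 0.994. The mice of 1 genotype differed by more than that: relative to the VERCUR-WT mean the list stood at -0.68, -0.02 and 0.66 in VERCUR-WT 1 to 3 and at 0.51, 0.16 and 0.01 in VERCUR-CD 1 to 3, and its median was -0.05 without VERCUR-WT 1 and 0.60 without VERCUR-WT 3. Striatal markers stood at -0.75, -0.81 and 1.40 in VERCUR-WT and 1.10, -0.63 and -0.73 in VERCUR-CD, with a median log2 fold change of -0.13 over 13 genes. Without VERCUR-WT 3 it was 0.70 and without VERCUR-CD 1 it was -0.68. Meningeal fibroblast markers had 0.27, 0.17 and -0.41 in VERCUR-WT and -0.14, 0.10 and -0.45 in VERCUR-CD, with a median of -0.18 over 12 genes and Dcn lowest at -0.42. The 8 markers tested of choroid plexus and ependyma had a median of 0.02, and the 6 of red blood cells one of -0.15.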

How the data were processed

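Cortex RNA from 12 mice was sequenced (3 per combination of genotype and treatment), and groups came from the sample labels. Per the study's notes STAR 2.5.3a aligned the reads to GRCm38, and the authors deposited normalized counts per gene, which are reads divided by 1 factor per sample. Low values were whole multiples of 1 step per sample in 100% of cases, which gives the counted reads. The counting program and its use of strand are not given in the sources used here, so overlapping, antisense and near-identical genes are uncertain.

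A linear model of log2(normalized count + 1) was fitted with limma 3.58.1 in R 4.3.3 to the 17111 genes with a mean of at least 10, with 4 group means over 12 mice and an intensity trend. This scale understates changes of low genes. Tests were two-sided, with Benjamini-Hochberg adjustment over all genes tested, and interactions were judged by the adjusted p alone. Nothing says whether mice of a group came from separate litters or cages, so p-values measure the spread between these mice. With 3 mice against 3 an exact permutation test reaches 0.1 at the lowest and was not used. The script was tested on simulated data. Positions and transcripts are those of GENCODE M21. Named genes were the DEGs, the 10 next by p, neighbours of the deletion, extremes of each list and 8 genes that the study measured. Slc17a7, Drd2, Fos, Sik1, Zfp189, Ddn, Pcdhb17, Jchain, Igkc, Limk2, Igfbpl1 and Gm36855 were named after their values were seen. So were genes beside a DEG or beside 1 of the next 10. The comparison, the gene lists and the tests were chosen with earlier results of these data known. Of the 41 lists, 14 are cell type markers, 22 are pathways and 5 come from the study. Deposited tables of genes that the authors had selected, with values per mouse relative to VEH-WT, were not used. Some results, among them 1 of the 26 alternatives, are not reported here.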

Additional observations from a re-analysis of the deposited data

How the results depend on the processing

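The comparison was repeated under 26 alternatives. The count of 25 DEGs stayed between 22 and 30 in all but 1 of them: with sample quality weights there were 46 (27 outside the deleted region, where the main count was 9). Leaving out 1 of the 12 mice in turn gave 23 to 28 DEGs, 7 to 12 outside the region, 16 to 17 WBSCR genes and a median log2 fold change of the WBSCR genes of -1.07 to -0.98, the last without VERCUR-CD 2. Fitting only the 6 co-treated mice gave 23 DEGs and a mean of at least 50 gave 22. The interaction gave 0 genes in each alternative that could give it. None of the 25 DEGs changed its direction in any alternative.

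The replicate numbers do not pair the mice (same-numbered VERCUR-CD and VERCUR-WT mice correlated at -0.35, -0.16 and -0.14 in their deviations from the group means). A fit with the replicate block gave 26 DEGs, 10 outside the region, 16 WBSCR genes, a median log2 fold change of the WBSCR genes of -1.06 and 0 for the interaction.

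Further alternatives were added after seeing the data: limma-voom on recovered reads (29 DEGs, which include all 25) and leaving out VERCUR-WT 3 and VERCUR-CD 1 (22 DEGs). The planned edgeR and DESeq2 fits were not run. The deposited values are normalized, and the reads recovered from them were tested with limma-voom instead. With a CV under 20% required, oligodendrocyte, striatal and red blood cell lists could not give a median. With 3 mice a group, changes of low genes are limited by depth and by the spread between mice.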
